A study of Mus musculus with 81 samples.

Results

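Chromatin accessibility was followed at 9 mouse genes that encode transcription factors of the germ layers and the primitive streak: Eomes, Mixl1, Gsc, Msgn1, Foxa2, Sox17, Gata4, Gata6 and Pax6. They were chosen by name from the 21887 protein-coding genes of the annotation. Each was read as a locus, meaning its RefSeq gene model with 10 kb on either side, and all 9 had a peak in at least 1 list and a region in the count table. The loci together held 33 of the 139000 regions with read counts. Overlapping peaks of all 31 deposited lists merged into 89 sites in these loci. Sites were merged in these loci only, so counts of sites have no share over all genes beside them.

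The primitive streak is the site where epiblast cells of the gastrulating embryo become mesoderm and endoderm, under Nodal, Wnt and BMP signals. Eomes, a T-box factor, and the homeobox factors Mixl1 and Gsc are among the genes switched on there, and Msgn1, a basic helix-loop-helix factor, follows in presomitic mesoderm. Foxa2, Sox17, Gata4 and Gata6 act in endoderm, the GATA pair also in primitive endoderm and heart, while Pax6 is a paired-box factor of neuroectoderm and eye. Transcripts were not measured in these data, so the values describe chromatin around the genes and not their expression.

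Accessibility was read with ATAC-seq, in which a transposase cuts open DNA. Its replication-coupled form captures newly copied DNA through the nucleotide EdU, given at 20 µM for 10 min. Nascent samples were collected at once, mature ones 2 h after labelling with a chase in 10 µM thymidine, and DNA not captured gave the bulk signal. Wild-type 129/Ola embryonic stem (ES) cells were taken at 0h, at 9h and, as epiblast-like cells (EpiLC), at 48h of culture with FGF2 and Activin A. Mouse embryonic fibroblasts (MEF) of mixed Black6-129X1/SvJ background were heterozygous for Col1a1::tetOP-OKSM, R26-M2rtTA and Oct4GFP, so that doxycycline at 2 µg/mL switched on the reprogramming factors OKSM from 1 inserted cassette. They were taken at 6h, 12h and 36h of induction, with 1 bulk list for the nascent arm and another for the mature arm, and at 60h as 4 fractions, Q1 to Q4, of a sort on a division dye. Which of these held the brightest cells is not stated. In the last experiment, MEF of the same genotype received aphidicolin, an inhibitor of replicative DNA polymerases, at 5 µg/mL from 4 h after induction for 10 h, beside untreated MEF of the same 14 h. All MEF groups, the untreated one included, carried the induced cassette. In bulk samples, fewer cells with an open site and less opening per cell cannot be told apart.

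The 81 samples formed 27 groups of 3, and the time courses and fractions were deposited as 25 lists with 1 per group, so those values have no replicate error. The lists held 3222 to 203188 peaks. The 6 libraries of the aphidicolin experiment had peak lists of their own and counts: 55158844 to 78677381 counts per library with aphidicolin and 41183769 to 49440524 untreated. Marker genes were read as a check on cell identity. At 6 pluripotency genes the bulk lists had 82 peaks for ES cells (0h) and 28 for MEF (6h), while at 6 fibroblast genes they had 22 for ES cells and 62 for MEF. Peaks were also more numerous in MEF at 6 neural genes (28 in ES cells and 57 in MEF). At 7 extraembryonic endoderm genes they numbered 63 and 122, so such counts alone do not identify the cells. Loci of 4 formative genes went up in bulk peaks between 0h (23) and 48h (35).

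Promoter sequence is shown because the 5 genes with an entry in the RefSeq promoter table differed in whether a peak ever covered their start. The table matched all but Mixl1, Sox17, Gata4 and Gata6. Each line is the 250 bases before the outermost annotated start, 5′ to 3′ on the gene's strand, build GRCm38.p6 (which shares coordinates with mm10). Capitals mark matches to 1 of the motifs searched.
Eomes: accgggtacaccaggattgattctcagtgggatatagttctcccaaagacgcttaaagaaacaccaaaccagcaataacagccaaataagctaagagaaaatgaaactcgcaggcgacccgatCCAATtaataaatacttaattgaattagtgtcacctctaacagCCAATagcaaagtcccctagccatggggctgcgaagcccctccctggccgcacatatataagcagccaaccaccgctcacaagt
Gsc: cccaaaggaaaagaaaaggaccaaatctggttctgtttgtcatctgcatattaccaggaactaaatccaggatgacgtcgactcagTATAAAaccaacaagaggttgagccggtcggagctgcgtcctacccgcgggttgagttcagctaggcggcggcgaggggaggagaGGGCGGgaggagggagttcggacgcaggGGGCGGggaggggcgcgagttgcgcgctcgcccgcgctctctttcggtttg
Msgn1: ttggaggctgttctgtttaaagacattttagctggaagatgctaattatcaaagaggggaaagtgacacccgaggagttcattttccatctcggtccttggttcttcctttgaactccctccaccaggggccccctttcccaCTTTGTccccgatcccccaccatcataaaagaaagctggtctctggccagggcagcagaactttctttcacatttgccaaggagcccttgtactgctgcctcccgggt
Foxa2: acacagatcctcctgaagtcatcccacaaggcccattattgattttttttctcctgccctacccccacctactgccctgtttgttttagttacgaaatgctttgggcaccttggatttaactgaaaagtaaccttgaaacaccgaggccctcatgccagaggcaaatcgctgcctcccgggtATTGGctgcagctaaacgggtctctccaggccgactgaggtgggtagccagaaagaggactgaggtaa
Pax6: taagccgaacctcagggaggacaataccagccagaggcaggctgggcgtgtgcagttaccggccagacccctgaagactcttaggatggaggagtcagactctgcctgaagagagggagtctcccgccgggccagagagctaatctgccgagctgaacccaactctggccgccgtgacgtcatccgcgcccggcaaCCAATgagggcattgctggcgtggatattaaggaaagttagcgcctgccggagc

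These windows are chr9:118477939-118478188 (plus strand, Eomes), chr12:104473237-104473486 (minus, Gsc), chr12:11208949-11209198 (minus, Msgn1), chr2:148046970-148047219 (minus, Foxa2) and chr2:105668646-105668895 (plus, Pax6). The Gsc window held a peak in 25 of 31 lists, among them 8 of the 9 ES cell lists and all 6 lists of the aphidicolin experiment. Of the 5 windows printed it was also the richest in CpG, with an observed over expected ratio of 1.06, above 95.5% of the 21255 windows of protein-coding genes. The Msgn1 window had a ratio of 0.253 and a peak in 2 lists, both bulk lists of the ES course (0h and 48h). The Pax6 window, with a ratio of 0.652, had a peak in 6 lists: 4 of the ES course, 2 of the 3 aphidicolin lists and 0 of the 3 untreated ones. The aphidicolin lists were also longer (148292 to 163947 peaks, against 116939 to 129546), and no region with read counts covered this window. The Eomes window was touched in 4 lists, 3 of them bulk lists of MEF at 12h or 36h. At Foxa2 no list had a peak over the outermost window, whereas the window of a second annotated start, chr2:148045949-148046198, had one in 11 lists.

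In all, 9 motifs were searched on both strands, and no matches in these 5 windows overlapped one another. CCAAT occurred at Eomes 2 times, starting 127 and 84 bases before the start, at Pax6 once and at Foxa2 once on the opposite strand; 35.4% of all windows hold it. Gsc had TATAAA 164 bases before its start (11.6% of windows) and GGGCGG 2 times (42.6%). Msgn1 had ACAAAG, a letter run of SOX sites, on the opposite strand (14.95% of windows). The T-box run AGGTGTGA (1.0% of windows), the forkhead run TGTTTAC (2.62%), the GATA run AGATAA (8.81%), the octamer ATGCAAAT (1.58%) and the AP-1 run TGANTCA (6.14%) had no match in these windows.

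Eomes lies on chromosome 9 (118478186 to 118486132, plus strand). Its bulk peaks numbered 6, 10 and 7 in the ES course at 0h, 9h and 48h, and 5, 7 and 4 in MEF at 6h, 12h and 36h. For each gene the MEF bulk values given are those of the nascent arm, unless the mature arm is named. A site centred 1028 bp past the start was in 27 of 31 lists, and its bulk peak spanned 1452, 1487 and 1369 bp in the ES course and 879, 952 and 924 bp in MEF. A merged site that reached the start was in no ES list at 0h or 9h, first appeared at 48h, and was in all 6 MEF bulk lists. Single peaks covered the start itself only in the mature-arm bulk list at 12h and the nascent-arm bulk list at 36h of MEF. At 48h of the ES course the bulk peak ended 366 bp before it and the mature peak 48 bp before it. A further merged site, which began 2011 bp beyond the far end of the gene, was in 29 of 31 lists and in all 13 bulk and sorted lists. In the sorted lists its peak lay 3430 to 3483 bp beyond that end. This was the only site of the 9 loci with a mature peak at 6h in MEF, 3451 bp beyond the end. Eomes had 2 nascent peaks at each ES time, though not all at the same sites, and 2 at both 12h and 36h in MEF, where 8 loci and 7 loci had none.

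Mixl1 (chromosome 1, 180693043 to 180697034) had 2, 2 and 1 bulk peaks at 0h, 9h and 48h of the ES course, against 3, 3 and 2 at 6h, 12h and 36h in MEF. All 3 ES cell times had a nascent, a mature and a bulk peak at the site over its high-coordinate end, and no MEF list had a nascent one. That bulk peak stood at the 91st, 90th and 92nd percentile of score within its list in the ES course and at the 52nd, 56th and 36th in MEF. By time-course bulk lists, 0 Mixl1 sites were in the ES course alone and 2 in MEF alone.

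Gsc (chromosome 12, 104471209 to 104473236, minus strand) had 4, 5 and 4 bulk peaks in the ES course and 3, 4 and 4 in MEF. The site over its start, whose sequence is printed above, was in 25 lists. Its bulk peak was 702, 692 and 688 bp wide in the ES course and 784, 797 and 801 bp in MEF. A nascent peak was present there at 0h and 48h, and in no MEF list.

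Msgn1 (chromosome 12, 11208382 to 11208948, minus strand) is 567 bp long, and 1 site covered the whole gene. That site was in 6 lists, all of the ES course, with bulk peaks of 761, 709 and 761 bp at 0h, 9h and 48h and a nascent peak at 48h. The opposite held 3748 bp before the start, where a site was in 11 lists, all of MEF: its bulk peak was 838 bp at 6h, 637 bp at 12h and 185 bp at 36h, and at 36h the mature arm had none. Another site, 724 bp before the start, was in the ES bulk list at 0h, in the MEF bulk lists of both arms from 12h on, and in all 6 lists of the aphidicolin experiment.

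**Figure D1:**
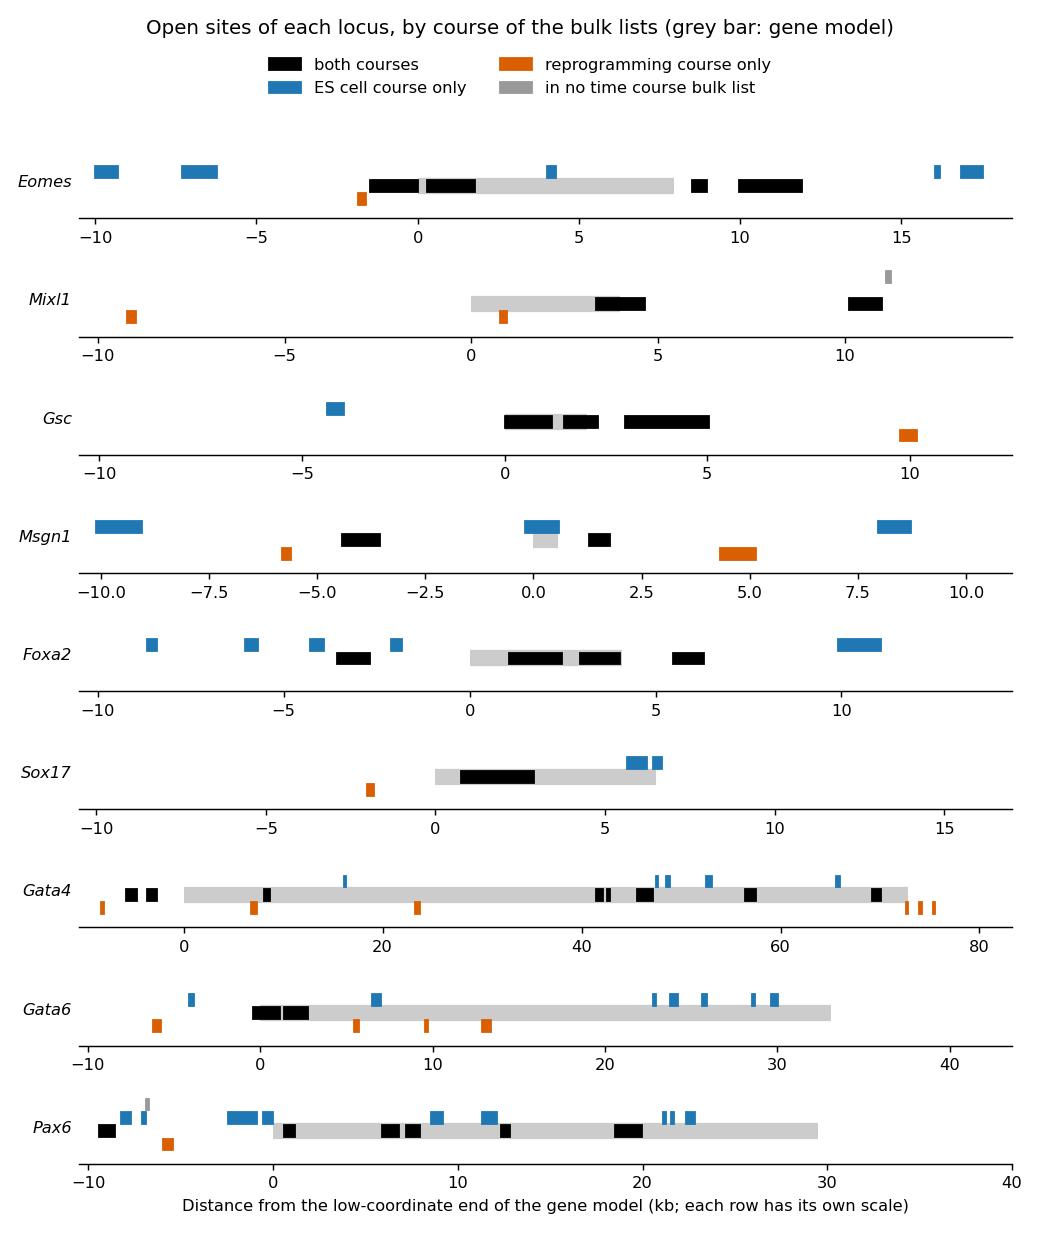
Merged sites of each locus by distance from the low-coordinate end of the gene model (kb, a scale for each row), coloured by the course whose bulk lists held them, with the gene model as a grey bar. Of 89 sites, 32 were in bulk lists of both courses, 37 in those of the ES course only, 18 in those of MEF only and 2 in neither; the site over Msgn1 is blue and the one upstream of it orange. No such counts were made for other genes.

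Foxa2 (chromosome 2, 148042877 to 148046969, minus strand), a forkhead factor that binds compacted chromatin, had 8, 6 and 9 bulk peaks in the ES course and 2, 3 and 2 in MEF. All 9 of its sites were open in the ES course, 5 of them there only and 0 in MEF only. The site inside its start was in all 9 ES lists but the nascent ones at 0h and 9h. In MEF it was in the mature-arm bulk list at 6h, in no later list of the time course, and in 2 of 3 lists each with aphidicolin and untreated. Fewer bases were covered by bulk peaks in MEF: 4626, 3489 and 4490 bp at 0h, 9h and 48h in ES cells, and 859, 1757 and 884 bp at 6h, 12h and 36h in MEF.

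Sox17 (chromosome 1, 4490928 to 4497426), an HMG-box factor of definitive endoderm and of endothelium, carried the widest bulk peak of the 9 loci. The site inside the gene had bulk peaks of 2111, 2110 and 2111 bp at 0h, 9h and 48h and was read as nascent and mature at all 3 times. In MEF the same site gave 228 bp at 6h, peaks of 916 and 524 bp at 12h, and of 1243 and 250 bp at 36h, with no nascent or mature peak at any time. The 6h value depended on the arm. In the mature-arm bulk list at 6h, 1012 bp of the locus were covered, in 1 peak at this site and 1 at a site 207 bp wide. EpiLC had 2 further bulk peaks at 48h near the high-coordinate end, of 529 and 259 bp.

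Gata4 (chromosome 14, 63198914 to 63271712) has the longest gene model, 72799 bp, and the most sites, 19. Its bulk peaks numbered 8, 8 and 12 in the ES course and 10, 10 and 7 in MEF. Of its sites, 5 were in ES bulk lists only, 6 in MEF bulk lists only and 8 in both. A site within the gene, 15302 bp from its high-coordinate end, was in 27 lists and all 13 bulk and sorted ones, with a score at the 96th percentile of the 0h list. The site at the high-coordinate end was in both MEF bulk lists at 6h and 1 at 12h and in no ES list.

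Gata6 (chromosome 18, 11052510 to 11085636) had 7 bulk peaks at each ES time and 3, 3 and 4 in MEF. The site over its low-coordinate end was wider in MEF, at 1212, 1310 and 1310 bp for 6h, 12h and 36h, than in the ES course, at 786 and 868 bp for 0h and 9h and 689 and 198 bp in 2 peaks at 48h. Only 2 of its 13 sites were shared by both courses, while 7 were in ES bulk lists only, 5 of them more than 20 kb into the gene.

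Pax6 (chromosome 2, 105668896 to 105698410, plus strand) had the most bulk peaks of the 9 at 48h: 10, 12 and 14 in the ES course, with 4, 8 and 5 in MEF. Its promoter site, 4 bp short of the start, had a bulk peak of 327 bp at 0h, 243 bp at 9h and 556 bp at 48h, with scores at the 9th, 6th and 73rd percentile. No MEF list of the time course had it. Inside the gene, sites centred 6360 and 7553 bp past the start were in 23 and 25 lists. The gene model overlaps that of Elp4, and the loci of Mixl1 and Gata4 reach into Lin9 and Neil2, so a peak there need not belong to the named gene.

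**Figure D2:**
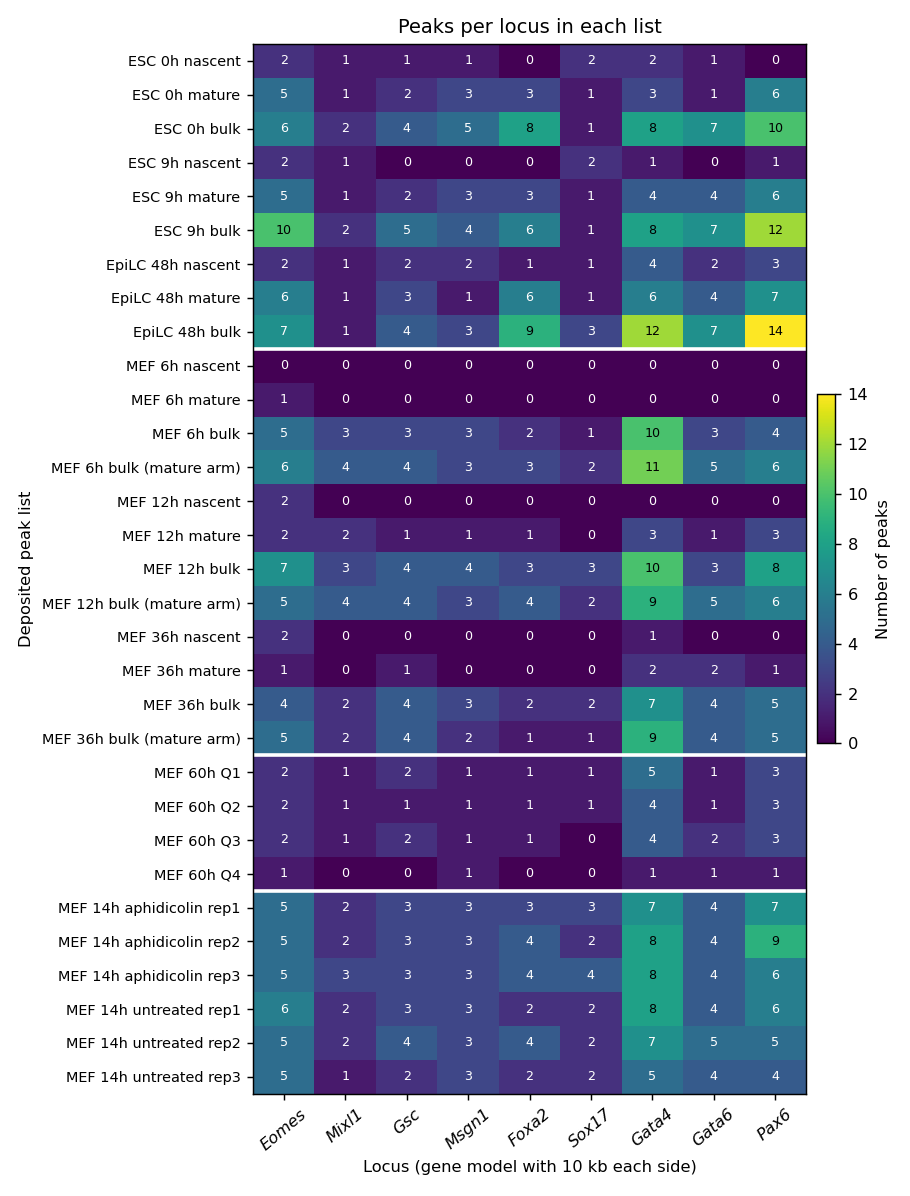
Number of peaks in each locus (columns) in each deposited list (rows), the ES course above, then MEF, the sorted fractions and the 6 libraries at 14h. Bulk lists of ES cells and EpiLC held 51 to 60 peaks over the 9 loci, and the nascent list of MEF at 6h held 0.

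Summed over the 9 loci, bulk peaks numbered 51, 55 and 60 at 0h, 9h and 48h, although the whole lists were of nearly equal length (154235, 154758 and 152932 peaks). From 0h to 48h, 5 loci gained and 2 lost bulk peaks, beside 37.7% and 32.4% of all 21887 genes. By site, 39 of the 50 open at 0h were still open at 48h, 11 were not, and 16 were open at 48h only of the pair, 5 of those at Gata4 and 4 at Pax6. Site turnover at other genes was not counted. Nascent peaks numbered 10, 7 and 18, and 6 loci had more at 48h than at 0h with 1 having fewer, beside 35.7% and 7.67% of all genes. The nascent list itself was longer at 48h (27693 peaks) than at 0h (19314).

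Of bulk peaks in the loci, 18 of 60 also had a nascent peak at 48h, or 30.0% (Wilson 95% interval 19.9 to 42.5), beside 17.4% of the whole bulk list. The shares at 0h and 9h were 17.6% (9.57 to 30.3) and 12.7% (6.30 to 24.0), beside 12.2% and 11.7%, which lay inside those intervals. Mature peaks covered 49.0%, 54.5% and 60.0% at 0h, 9h and 48h, beside 42.4%, 59.3% and 47.8% of the whole lists. In MEF, 0 of 34, 2 of 45 and 3 of 33 bulk peaks had a nascent peak at 6h, 12h and 36h. That is 0.0% (0.0 to 10.2), 4.44% (1.23 to 14.8) and 9.09% (3.14 to 23.6), beside 1.72%, 10.3% and 10.7% of the whole lists. Mature peaks covered 2.94%, 31.1% and 21.2% in MEF at 6h, 12h and 36h, beside 7.92%, 32.1% and 27.4%. These intervals cover counting error only, and peaks of 1 locus share their neighbourhood.

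**Figure D3:**
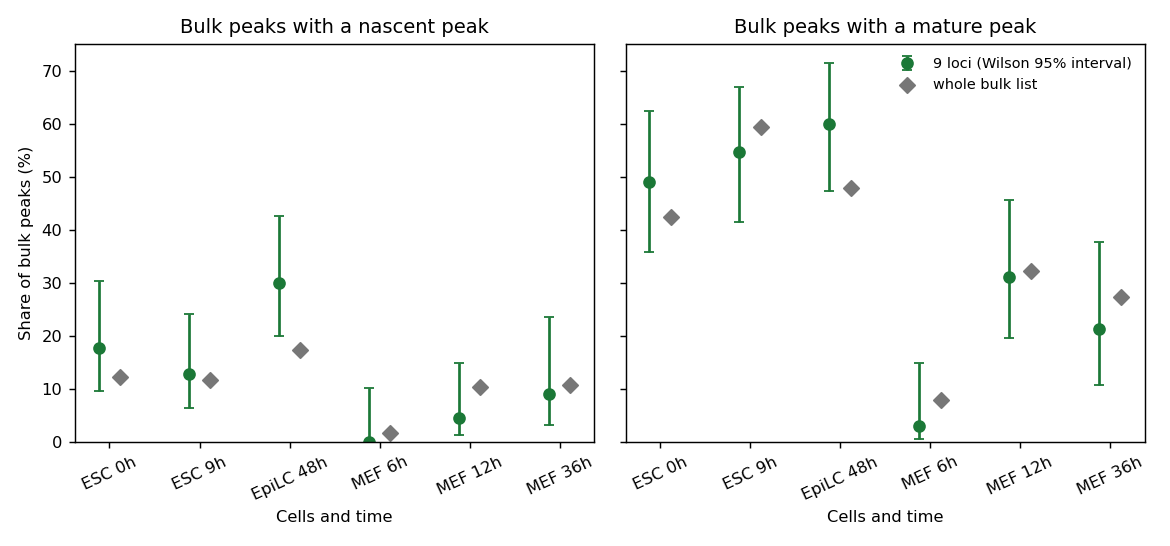
Share of bulk peaks (%) overlapped by a nascent peak (left) or a mature peak (right) at each time, for the 9 loci with Wilson 95% intervals and for the whole list. The interval of the 9 loci excludes the whole-list share only for nascent peaks at 48h (19.9 to 42.5, beside 17.4).

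In MEF the bulk count depended on the arm. The nascent arm gave 34, 45 and 33 peaks at 6h, 12h and 36h, and the mature arm 44, 42 and 33. Between 6h and 36h, 4 loci gained and 3 lost peaks in the nascent arm, beside 18.5% and 44% of all genes, and 0 gained and 8 lost in the mature arm, beside 11.7% and 51.9%. In both arms together 24 sites were kept, 5 lost and 3 gained, with no such count for other genes. The losses were 3 at Gata4, 1 at Mixl1 and 1 at Msgn1, and the gains were 1 each at Msgn1, Gata4 and Gata6. Only the gain at Msgn1, the site 724 bp before its start, coincided with an ES bulk site. Set against each other at their first times, ES cells at 0h had more peaks than MEF at 6h in 6 loci and fewer in 2, beside 43.7% and 33.3% of all genes.

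At 60h the fractions Q1, Q2, Q3 and Q4 held 17, 15, 16 and 5 peaks in the 9 loci, in lists of 71163, 64930, 73518 and 57762 peaks. Q1 had more peaks than Q4 in 7 loci and fewer in 0, beside 38.6% and 9.15% of all genes. The 5 peaks of Q4 were 1 each at Eomes, Msgn1, Gata4, Gata6 and Pax6, at the 5 sites that every bulk and sorted list contained. Mixl1, Gsc, Foxa2 and Sox17 had 0 peaks in Q4.

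With aphidicolin, counts summed over each locus were higher for 7 of the 9 genes and lower for 0 when libraries were scaled on the locus sums of all genes (edgeR quasi-likelihood test, Benjamini-Hochberg adjusted p under 0.05 over 18144 genes). Of all genes, 25.5% were higher and 26.1% lower. In the same 7 loci the 3 aphidicolin libraries lay above the 3 untreated ones, as they did for 29.4% of all genes, and in 0 they lay below, beside 29.6%. When libraries were instead scaled on all 138996 regions tested, 0 of the 9 passed, beside 9.17% of all genes higher and 55.6% lower. The median log2 fold change of all loci was 0.00 on the first scale and -0.20 on the second, so each call is relative to other gene loci. All 9 lay above the median gene on either scale, at the 57.2nd (Gata6) to 95.9th (Sox17) percentile of fold on the scale of locus sums. With a further scaling that followed signal strength, Mixl1 (-0.074) lay below the median of all loci (-0.0081).

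Sox17 had the largest log2 fold change of the 9 on the scale of locus sums and on that of all regions. Its locus had 5.04, 4.45 and 4.55 CPM (counts scaled to library size) with aphidicolin, against 3.73, 2.40 and 3.03 CPM untreated. The groups did not overlap, and the log2 fold change was 0.61 ± 0.15 (SE, edgeR adjusted p = 0.00688). On the region scale it was 0.41 ± 0.17 (adjusted p = 0.0531), and the groups overlapped. With scaling that followed signal strength it was 0.18 (adjusted p = 0.383), below Pax6 (0.39) and Gata4 (0.31). Markers of endothelium, where Sox17 is also expressed, were read on the scale of locus sums only and moved in the same direction there. Of 6 such loci 3 were higher and 0 lower, beside 25.5% and 26.1% of all genes. Their summed signal was 187 to 192 CPM with aphidicolin and 157 to 174 CPM untreated. The part of such cells in the result was not tested.

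Pax6 had 28.7, 29.3 and 28.0 CPM with aphidicolin, against 23.7, 19.6 and 19.5 CPM untreated, with no overlap. Its log2 fold change was 0.45 ± 0.07 (SE, edgeR adjusted p = 0.000635), and 0.25 ± 0.10 on the region scale (adjusted p = 0.0550). Gata4 had 37.7, 36.2 and 36.7 CPM with aphidicolin, against 30.5, 27.9 and 29.6 CPM untreated, again without overlap (log2 fold change 0.33 ± 0.05, SE, edgeR adjusted p = 0.000367). Of the 9 loci, only Gata4 and Pax6 passed the test when the scaling followed signal strength. Both were higher, beside 3654 of all 18144 genes higher and 3708 lower. Neural markers moved unevenly, with 3 of 6 loci higher and 3 lower, beside 25.5% and 26.1% of all genes. Their summed signal was 275 to 281 CPM with aphidicolin and 258 to 264.5 CPM untreated, and their part in the Pax6 value was not tested. With 50 kb instead of 10 kb on each side, the log2 fold change at Gata4 was -0.059 (edgeR adjusted p = 0.0498).

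Foxa2 had 6.91, 5.56 and 6.16 CPM with aphidicolin, against 4.46, 4.89 and 4.86 CPM untreated, and a log2 fold change of 0.39 ± 0.11 (SE, edgeR adjusted p = 0.0130). It no longer passed without aphidicolin library a (adjusted p = 0.0531) or with the gene model only (adjusted p = 0.0965), and with strength-dependent scaling its log2 fold change was 0.03 (adjusted p = 0.850).

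Msgn1 had 8.52, 10.52 and 9.93 CPM with aphidicolin, against 7.52, 7.80 and 8.43 CPM untreated (0.29 ± 0.10, edgeR adjusted p = 0.0266). Gsc had 15.6, 14.5 and 15.0 CPM with aphidicolin, against 13.55, 13.3 and 11.3 CPM untreated (0.24 ± 0.08, adjusted p = 0.0274). Eomes had 25.3, 27.1 and 26.2 CPM with aphidicolin, against 24.9, 21.5 and 23.7 CPM untreated (0.16 ± 0.06, adjusted p = 0.0474). At these 3 loci the groups lay close together without overlapping, and each lost its call without at least 3 of the libraries in turn. Libraries whose removal ended these calls were aphidicolin b and c and untreated b for Msgn1, those 3 and aphidicolin a for Eomes, and all but untreated a for Gsc.

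Mixl1 had 8.65, 8.34 and 7.01 CPM with aphidicolin, against 7.75, 6.63 and 6.00 CPM untreated, and did not pass (0.23 ± 0.12, edgeR adjusted p = 0.121). Its groups overlapped, since aphidicolin library c lay below untreated library a. Gata6 did not pass either, with 37.9, 38.4 and 36.6 CPM with aphidicolin and 38.4, 35.3 and 35.9 CPM untreated (0.04 ± 0.05, adjusted p = 0.467). On the region scale the log2 fold change was -0.16 for Gata6 and -0.037 for Eomes, neither past the threshold. There the 3 aphidicolin libraries lay below the 3 untreated ones at 1 of the 9 loci, Gata6, beside 57.8% of all genes, and above them at 0, beside 11.1%.

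**Figure D4:**
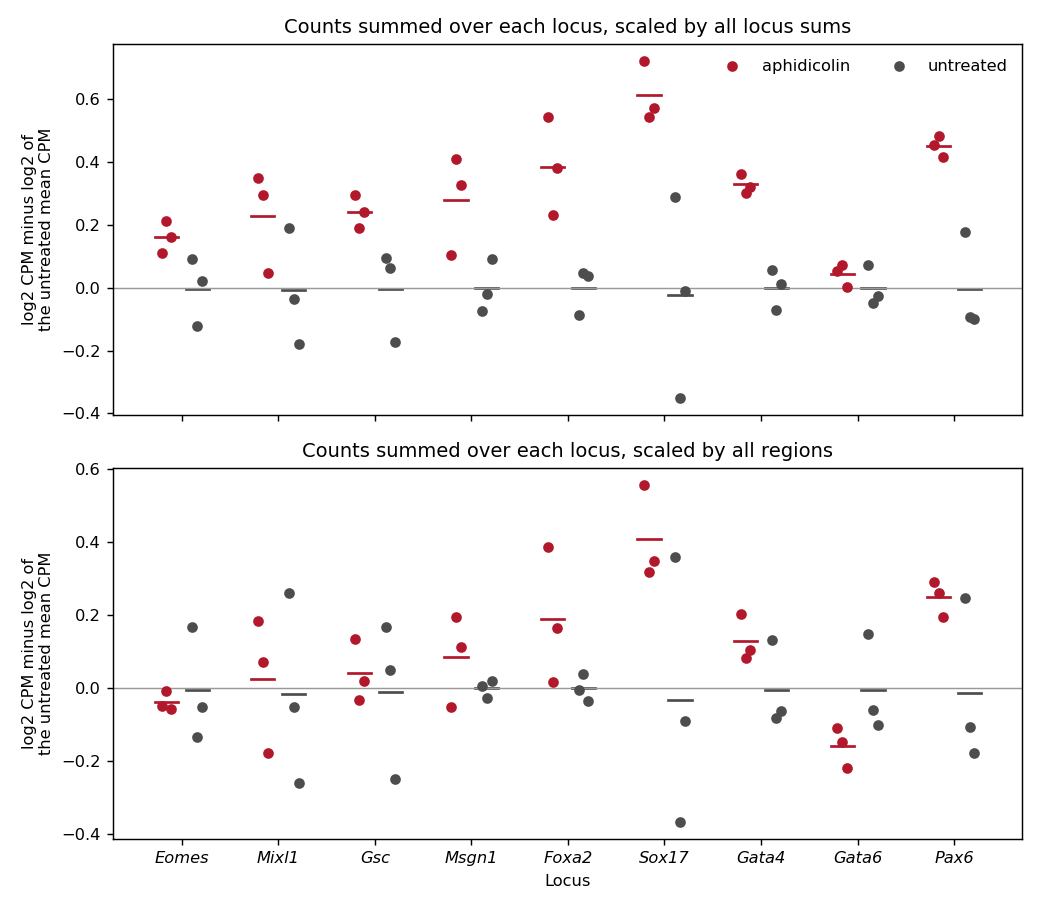
Log2 CPM of each locus in each library, minus log2 of the untreated mean, with aphidicolin (red) left of untreated (grey) and lines at the group means; libraries were scaled by all locus sums (top) or by all regions (bottom). In the top panel 7 loci have groups that do not overlap, whereas in the bottom panel Gata6 alone does, with aphidicolin below.

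By region, 3 of the 33 in the loci were higher with aphidicolin and 0 lower at an adjusted p under 0.05 in the same edgeR test, beside 18% and 17.9% of all regions. With other settings the higher regions numbered 6 of the 25 with a peak in all 6 lists, beside 16523 of all 100668 such regions. They were 10 of 33 with scaling by library totals and 1 with DESeq2, beside 42149 and 19850 of all 138996. When 1 library was left out they numbered 0 to 7, beside 15282 to 29925 of all regions. In 5 of the 33 the 3 aphidicolin libraries lay above the 3 untreated ones and in 2 below, beside 23.8% and 22.9% of all regions. The median log2 fold change was 0.09 over the 33 and 0.02 over all regions. The 3 called regions lay outside the promoters. At Msgn1 the MEF-only site upstream of the start had 2.61, 3.24 and 3.00 CPM with aphidicolin, against 1.91, 2.23 and 2.32 CPM untreated (log2 fold change 0.46 ± 0.14, SE, edgeR adjusted p = 0.0190). At Foxa2 a region 3065 bp beyond the low-coordinate end had 1.38, 1.09 and 1.07 CPM with aphidicolin, against 0.570, 0.802 and 0.950 CPM untreated (0.61 ± 0.22, adjusted p = 0.0401). At Pax6 a region inside the gene, 18630 bp past the start, had 4.86, 5.29 and 4.89 CPM with aphidicolin, against 4.23, 3.41 and 4.42 CPM untreated (0.32 ± 0.12, adjusted p = 0.0411). None of these calls held in every leave-one-out fit.

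Regions within 1 kb of a gene end did not pass the test. The strongest of all 33, over the low-coordinate end of Gata6, had 27.7, 27.2 and 25.8 CPM with aphidicolin, against 33.7, 30.02 and 29.5 CPM untreated, with no overlap (log2 fold change -0.21 ± 0.08, SE, edgeR adjusted p = 0.0557). The region over the start of Gsc had 13.6, 11.8 and 12.6 CPM with aphidicolin, against 13.03, 12.5 and 9.67 CPM untreated (0.11 ± 0.10, adjusted p = 0.439). The region just inside Eomes had 9.57, 8.77 and 8.40 CPM with aphidicolin, against 10.6, 7.04 and 7.27 CPM untreated (0.10 ± 0.13, adjusted p = 0.559). At Sox17 the wide site within the gene had 4.60, 3.87 and 3.92 CPM with aphidicolin, against 3.99, 2.52 and 3.02 CPM untreated (0.37 ± 0.15, adjusted p = 0.0597). The remaining 4 such regions, at Eomes, Mixl1, Gsc and Msgn1, had log2 fold changes of -0.25 to 0.06. Over the 7 regions of Gata4, none within 1 kb of an end, log2 fold changes ran from -0.04 to 0.32 and none passed.

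Over the whole table the fold change moved with signal strength: its median was 0.37 for the decile with least signal and -0.32 for that with most. Of the 33 regions, 2 lay in the weakest decile and 1, that of Gata6, in the strongest. With scaling that followed signal strength, 2 of the 9 loci and 2 of the 33 regions passed, and none of those regions was among the 3 named above. All of these were higher, beside 3654 of all 18144 genes and 15518 of all 138996 regions.

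**Figure D5:**
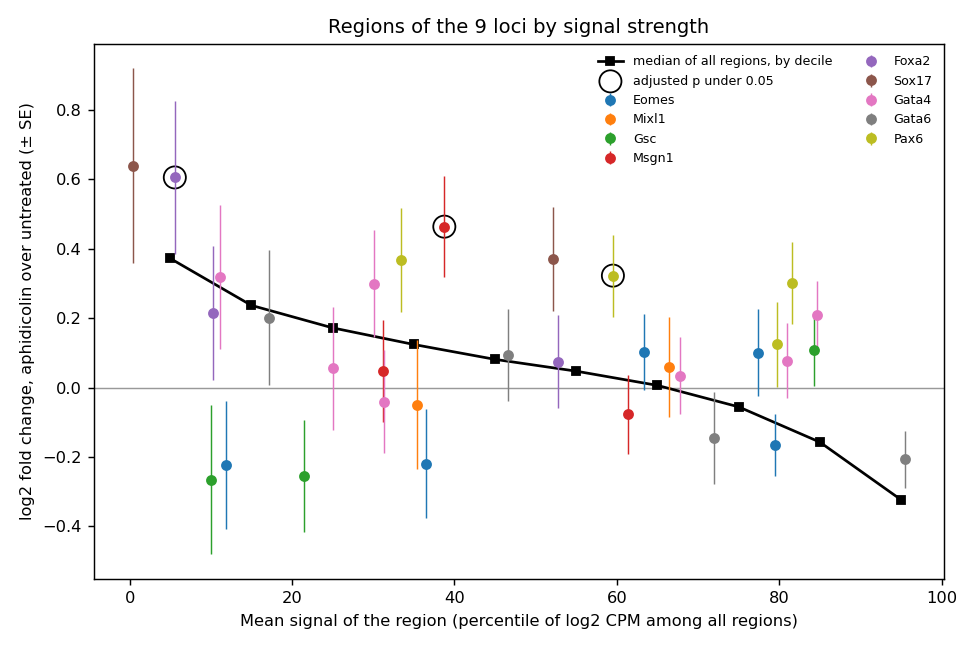
Log2 fold change (aphidicolin over untreated, ± SE) of the 33 regions against the percentile of their mean signal among all regions, coloured by gene; the black line joins the medians of all regions by decile (0.37 to -0.32) and rings mark the 3 regions with an adjusted p under 0.05. The 3 ringed regions lie above the line, and the Gata6 region at far right, at -0.21, lies below 0 and above the line.

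Peak lists of the single libraries held 37, 40 and 40 peaks in the 9 loci with aphidicolin, against 36, 37 and 28 untreated (means 39.0 ± 1.73 and 33.7 ± 4.93, SD, n = 3 each). The difference of 5.33 peaks gave p = 0.2 in a two-sided exact permutation test, which cannot go below 0.1 here. The aphidicolin lists were also longer (148292 to 163947 peaks, against 116939 to 129546). Brought to equal length by score, they held 23, 27 and 26 peaks with aphidicolin, against 30, 27 and 28 untreated. Sox17 had 3, 2 and 4 peaks with aphidicolin and 2 in each untreated library, and Pax6 had 7, 9 and 6 with aphidicolin and 6, 5 and 4 untreated.

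Genes that act with these factors were read the same way, on the scale of locus sums, where 25.5% of all genes were higher and 26.1% lower. Of 21 loci of Nodal, Activin and Wnt signals and their feedback, 6 were higher and 5 lower with aphidicolin, at a median log2 fold change of 0.00. Those furthest in each direction were Tdgf1, the Nodal co-receptor (0.39 ± 0.09, SE, edgeR adjusted p = 0.00540), and Foxh1, a SMAD partner (-0.25 ± 0.03, adjusted p = 0.000282). Of 21 tested loci of other early lineage factors, 6 were higher and 1 lower, at a median of 0.08, led by Six3 (0.52 ± 0.07), a forebrain factor, with Lhx1 (-0.20 ± 0.07) the lower one. The 9 genes here had a median of 0.29, against 0.00 over all genes. On the region scale these medians were 0.09 for the 9 genes and -0.20 for all, and with strength-dependent scaling 0.06 and -0.0081. Markers of extraembryonic endoderm, where Gata4, Gata6 and Sox17 are also expressed, were higher at 1 of 7 loci and lower at 0, with a summed 712 to 741 CPM with aphidicolin and 658 to 744 CPM untreated; their part in the results was not tested.

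Likeness between loci was measured as Pearson's r of log2(covered bp + 100) over the 13 bulk and sorted lists, among 19287 genes. For 7 of the 9, the 2 most alike are given, with an r of 0.988 to 0.996. They were Tsen34 and Mxi1 for Eomes, Neurog1 and Il12rb1 for Gsc, and Rhpn1 and Ctsf for Foxa2. For Gata4 they were Kcns2 and Shisa8, for Gata6 Has1 and Barhl1, for Pax6 Klc3 and Bglap3, and for Mixl1 1700003F12Rik and Brdt. The lists differ in length and depth, which every locus shares, so the values are a description and carry no p-value.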

How the data were processed

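The submitters' processing notes name mm10, with MACS2 2.2.0, Bowtie2 2.2.5, bedtools 2.26.0, cutadapt 2.2.0, SAMtools 1.4.1 and bcl2fastq 2.19.1. Sources used here give neither parameters nor any shift of reads for the transposase. The authors deposited peak lists with a score per peak, used here only to rank or filter within a list. They also deposited 1 table of raw counts in 139000 regions for the aphidicolin experiment. Its columns name a group and a number that no label ties to a sample, hence the names a, b and c. Library pairs of a group differed beyond sampling noise (lowest chi-square over degrees of freedom 1.88). Whether replicates were separate cultures is not stated, so p-values may measure technical spread.

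Gene models came from RefSeq GRCm38.p6, and an overlap of 1 bp counted. Counts were tested in edgeR 4.0.16 (glmQLFit, glmQLFTest, TMM, filterByExpr, two-sided, R 4.3.3), per region and summed per locus, with DESeq2 1.42.0 as an alternative. The scripts were tested on simulated data with known changes. Scaling locus sums on all regions was added after seeing that the scales differ. The regions named are those within 1 kb of a gene end and the called ones. Genes, lists and rules were chosen with earlier results of these data known. The genes most like Msgn1 and Sox17 are not reported here.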

Additional observations from a re-analysis of the deposited data

How the results depend on the processing

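The 7 higher calls among locus sums became 0 with region-table scaling, chosen after seeing the data, and 2 with strength-dependent offsets (Gata4 and Pax6). Over all 18144 genes these settings gave 1664 and 3654 higher. With the gene model only, 4 of 8 loci tested were higher, beside 3602 of all 16496. Leaving out 1 library gave 4 to 8 higher, beside 3322 to 5140 of all 18144. In these settings 0 of the 9 genes were lower. The higher loci numbered 7 with RLE factors, library totals, DESeq2 and no filter, beside 4600 to 5396 of all 18144. With 50 kb each side they also numbered 7, beside 5895 of all 19310, but Gata6 joined and Gata4 left them, as 1 lower locus (6088 of all). Directions turned for Eomes (-0.037) and Gata6 (-0.16) with region-table scaling, for Mixl1 with strength-dependent offsets (-0.074) and 50 kb (-0.011), and for Gata4 with 50 kb (-0.059).

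The 3 higher and 0 lower of 33 regions became 10 higher with library totals, and 1 higher and 1 lower with DESeq2. RLE factors added 1 lower. Over other sets of regions, 6 of the 25 with a peak in all 6 lists were higher, and 1 of the 18 in the gene models. With 50 kb each side, 11 of 70 were higher and 7 lower. Leaving out 1 library gave 0 to 7 higher and 0 to 2 lower. Strength-dependent offsets turned the regions near Msgn1 (-0.0905) and over Gata6 (0.10), and leave-one-out fits turned that of Mixl1 (-0.0715 to 0.261), of Msgn1 (-0.003 to 0.141) and over the Gsc start (-0.0034 to 0.186). Over the whole table, 25061 higher and 24874 lower became 42149 and 11101 with library totals (79.2% of calls higher, against 50.2%, median log2 0.18), 15518 and 14994 with strength-dependent offsets, and 15282 to 29925 and 15185 to 28012 without 1 library. The cause of these moves was not tested.

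Same-numbered libraries of both groups correlated at 0.31, 0.015 and 0.18 in their deviations from the group means, and differently numbered ones at -0.29 to 0.17. These values do not settle whether the numbers pair the libraries, and the main fits used no pairing. A replicate block by the number in the column name gave 7 higher and 1 lower regions of 33, beside 30014 and 30446 of all 138996. With it 8 of the 9 loci were higher, beside 5565 of all 18144.

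Among peak counts, the change of the nascent arm from 6h to 36h (-1) was 7 at equal list length, 1 with the gene model only and -11 in the mature arm. The difference with aphidicolin (5.33) was -3 at equal length, and 2.5 to 7 without 1 library. Over the 3 ES times, the share of bulk peaks with a nascent peak (20.5%) was 34 of 166 peaks. It was 11.1% of 144 at scores of 100 or more, 76.9% of only 13 at equal length, and 13.3% when the overlap had to cover at least 50% of the bulk peak. The mature share (54.8%) was 45.8%, 80.0% (of 75 peaks) and 46.4% in the same order. With 1 list per group, depth limits what an absent peak means, most of all in the nascent list at 6h.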
